A study of Mus musculus with 18 samples.

Results

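DNA methylation of mammary epithelial stem cells was compared with that of luminal progenitor cells in 6 stem and 6 progenitor libraries, 12 of the 18 libraries of the study. They form 6 pairs, 1 library of each cell type at each reproductive stage. The mice were C57BL/6 females: virgins at week 3 and week 9, mice at day 10, day 16 and day 19 of pregnancy, and retired mice. The cells were purified from digested mammary glands, and no allele, transgene or agent is named for any group. Mature luminal cells of the same stages gave the other 6 libraries, used here only for comparison. Members of the comparison were the 802349 CpGs that each of the 12 libraries covered with 5 reads or more, of 1485193 CpGs listed in any library. A pair has 1 library per cell type, and neither the animals behind each library nor the pooling of glands is stated in the labels. Except where the pairing is left out, the p-values below therefore measure the spread of the stem minus progenitor differences between pairs. That spread holds both stage and animal. Ages are given for the virgin mice alone, so pregnancy and age cannot be told apart.

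The mammary epithelium has an outer basal layer, whose cells contract to eject milk, and an inner luminal layer. Cells with stem activity in transplants are found mainly with basal cells, while luminal progenitors expand in pregnancy and feed the milk-producing alveoli. Methylation of cytosine at CpGs is copied when cells divide, is low at most CpG-rich promoters, and varies between cell types mainly at CpG-poor sequences such as enhancers. Reduced representation bisulfite sequencing cuts DNA with MspI at ccgg and so reads CpG-rich sequence more fully than the rest. A bisulfite read does not separate methylcytosine from hydroxymethylcytosine.

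The retired progenitor library was the shallowest, with 17702302 reads over its CpGs, and the week 9 virgin progenitor library the deepest, with 105559878, while the median reads per CpG were 10 to 58. The day 16, day 19 and retired pairs were the shallowest. The median reads per tile of 1000 bp were 246 and 316 in the week 3 and week 9 stem libraries, and 116 and 101 in the day 16 and retired stem libraries; its part in the results was tested only by thinning. Reads can include PCR copies of a molecule. Purity could not be judged from the promoters tested. Of 11 lineage genes set aside for a check, Elf5, Krt5, Krt14, Krt8, Esr1 and Notch1 were not located by the matching of CpG spacing described below. Their promoter reads were therefore not examined. Gata3 and Notch3 alone had a promoter that was placed and tested, and both of these promoters were near 0% in every library of both types. The means were 0.0656% ± 0.161 in stem and 0.0963% ± 0.236 in progenitor libraries for Gata3, and 0.0908% ± 0.149 and 0.055% ± 0.135 for Notch3 (SD, n = 6). The part of other cells in the results below was not tested.

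The first question was whether stem and progenitor cells differ in their overall level. Averaged over all CpGs, stem libraries had 49.3% ± 0.632 methylation and progenitor libraries 49.8% ± 0.324 (SD, n = 6). The paired difference of -0.486 percentage points had the same sign in 4 of 6 stages and was not larger than the spread between stages (two-sided exact permutation within stages, p = 0.156; the smallest p for 6 pairs is 0.03125). The difference was -0.197 points where each library contributed any CpG with 5 reads, and 0.617 points with reads pooled over the CpGs. Most CpGs are near the ends of the scale. CpGs under 20% averaged 1.55% in stem and 1.64% in progenitor libraries, and CpGs above 80% averaged 91.98% and 92.3%.

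CpGs whose mean over the 12 libraries was 20 to 80%, 134321 in number, held the wider differences. Stem libraries averaged 58.5% at week 3, 59.8% at week 9, 55.6% at day 10, 53.2% at day 16, 53.6% at day 19 and 56.9% in retired mice. Progenitor libraries stayed between 57.4% at week 3 and 59.2% at day 10. Stem cells were thus above progenitor cells in both virgin stages, by 1.02 and 2.03 points, and below them at day 10, day 16, day 19 and in retired mice. The differences there were -3.66, -4.91, -4.32 and -1.51 points. The mean over stages was -1.89 points ± 2.90 (SD of 6 differences; exact permutation p = 0.188). The mean difference was 1.52 points over the 2 virgin stages and -4.30 points over the 3 pregnant stages so that pregnant minus virgin was -5.82 points. All 3 pregnant pairs were below both virgin pairs (exact permutation p = 0.1, the smallest that 3 against 2 allows). This pattern was known from earlier work on these files before the CpGs were chosen.

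**Figure D1:**
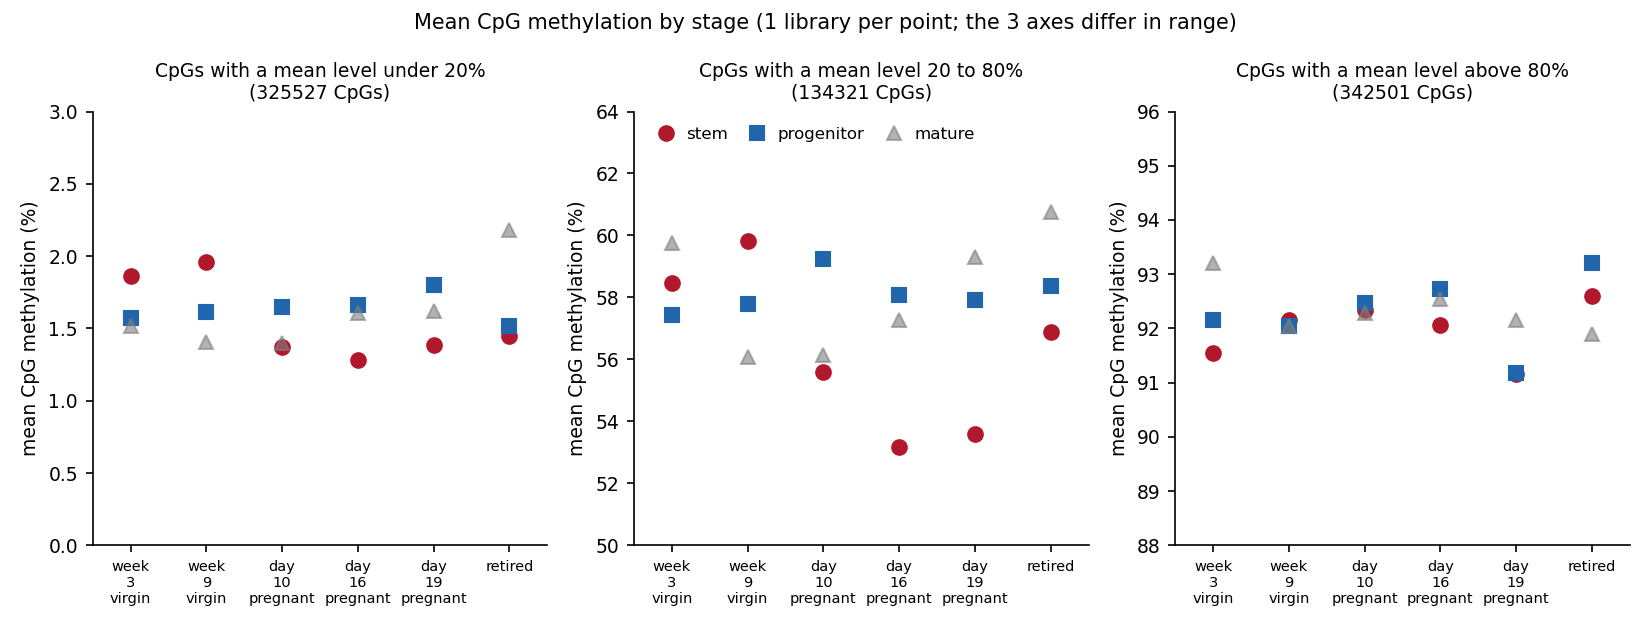
Mean CpG methylation (%) of each library by stage, for CpGs with a mean level under 20%, of 20 to 80% and above 80%; each point is 1 library and the 3 axes differ in range. In the middle class the stem points lie above the progenitor points at both virgin stages, by 1.02 and 2.03 points, and below them at the other 4 stages, with a difference of -4.91 points at day 16.

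Reads were next summed in 84165 tiles of 1000 bp with at least 3 such CpGs, to see where in the genome each pair differed. The counts that follow compare 2 libraries of a stage and have no replicate. At week 3, stem cells were lower by 20 points or more in 469 tiles (0.557%) and higher in 557 (0.662%). At week 9 the counts were 1104 lower (1.31%) and 1705 higher (2.03%). The virgin pairs therefore had more tiles with higher than with lower stem methylation. In pregnancy the balance was the other way. At day 10 stem cells were lower in 2576 tiles (3.06%) and higher in 954 (1.13%), and at day 16 lower in 4295 (5.10%) and higher in 1985 (2.36%). At day 19 the counts were 2915 (3.46%) and 909 (1.08%). The lower tiles made up 73.0%, 68.4% and 76.2% of those past 20 points in the 3 pregnant pairs, against 45.7% and 39.3% in the virgin pairs. The retired pair was between them, with 3377 tiles lower (4.01%) and 2597 higher (3.09%), or 56.5% lower.

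Shallow libraries give noisier levels, and the pairs with most such tiles, day 16 and retired, were also the shallowest. With reads thinned at random so that each library kept about the total of the shallowest, counts of lower and higher tiles were 1079 and 1297 at week 3, 1743 and 2462 at week 9, 3359 and 1447 at day 10, and 4668 and 2124 at day 16. They were 3542 and 1382 at day 19, and 3526 and 2634 in retired mice. The direction of the balance in each of the 6 stages was the same after thinning, while the count at week 3 went from 1026 to 2376.

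**Figure D2:**
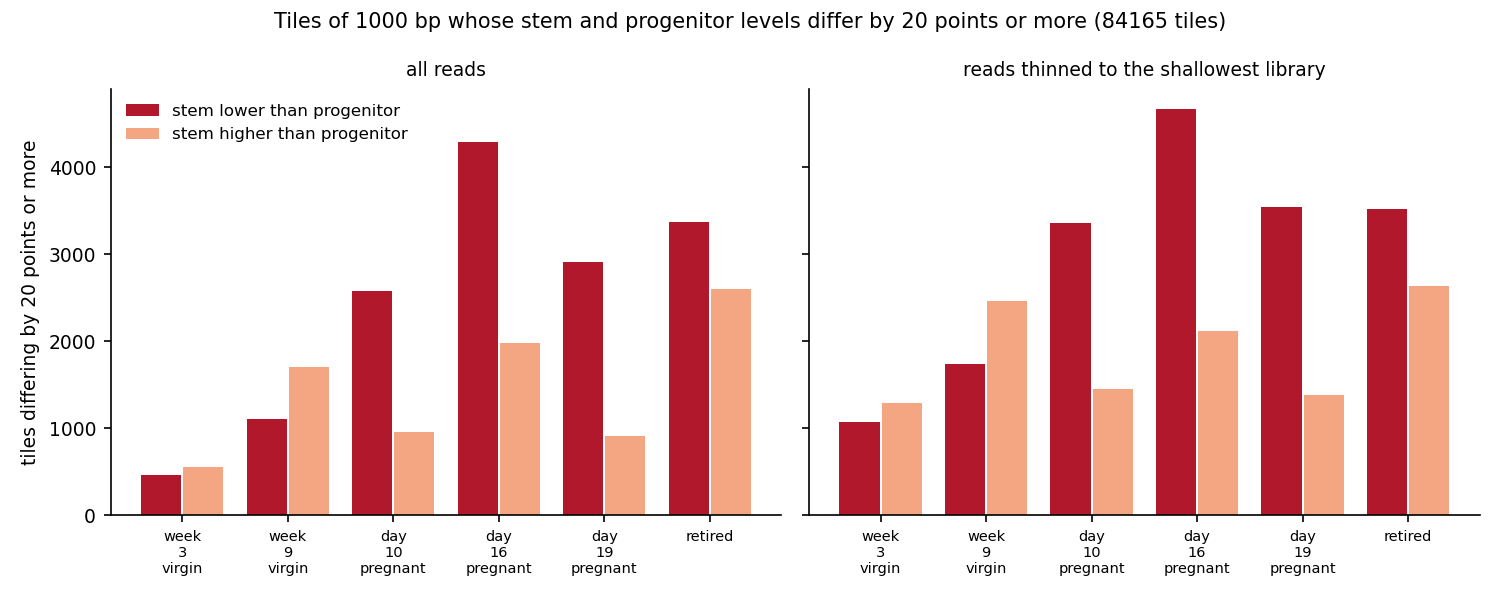
Number of 1000 bp tiles, of 84165, whose stem and progenitor levels differ by 20 points or more at each stage, split by direction, with all reads (left) and with reads thinned to the shallowest library (right). Tiles with lower stem methylation outnumber the others at the 3 pregnant stages and in retired mice, and not at the 2 virgin stages.

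The pairs share no library, so their differences can be set side by side tile by tile. Across 19767 tiles of 20 to 80%, Pearson's r between the stem minus progenitor differences of 2 stages was 0.285 to 0.514 for the 6 combinations of the day 10, day 16, day 19 and retired pairs. It was 0.138 between week 3 and week 9. Between a virgin pair and any of the other 4 it ran from -0.232 (week 3 with day 19) to 0.139 (week 9 with retired). These values are across tiles, which share libraries and depth, and are given as a description. With reads thinned they were 0.259 to 0.434, 0.0986, and -0.180 to 0.116. The pattern of differences was thus more alike among the 4 later pairs than between them and the virgin pairs.

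No tile passed the test of stem against progenitor cells. A call required 10 points and an adjusted p below 0.05 in a fit that held stage as a block, and 0 of 84165 tiles (0%) met it, while 7618 had an unadjusted p under 0.05. By size alone, the mean over stages was lower in stem cells by 10 points or more in 2891 tiles (3.43%) and higher in 1375 (1.63%), and by 20 points or more in 717 (0.852%) and 292 (0.347%). The smallest adjusted p was 0.425 with the moderated quasi-binomial model, and limma also called 0, with 6973 at an unadjusted p under 0.05. Without the stage block 1 tile was called. It lay at chr12:74649001-74650000 on mm9, 1.6 kb from the placed start site of Tmem30b, a subunit of phospholipid flippases. Its stem libraries had 48.5% to 65.6% and its progenitor libraries 24.3% to 36.2%, a difference of 27.3 points (adjusted p = 0.0162 without the block, 0.425 with it). Mature libraries at this tile ran from 10.7% to 55.3%. Among single CpGs, 0 of 802349 (0%) were called, with 36904 at an unadjusted p under 0.05. The change of the difference between virgin and pregnant stages was called in 0 tiles (0%), with 10562 at an unadjusted p under 0.05, a smallest adjusted p of 0.124, and 0 by limma (8037). In counts simulated on these libraries the test of stem against progenitor cells found 21% of the tiles set to differ by 20 points, and 88% of the tiles set to differ by 40 points. The simulation gave all tiles the same spread between libraries and every pair the same difference, and changed tiles of middle levels alone. In the data the difference varied with stage, so these shares do not say how many real differences the test missed.

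Some tiles kept the 2 cell types apart in every library. How many would do so with the cell type labels exchanged was not counted, so the counts below do not show a difference beyond that. All 6 stem libraries lay below all 6 progenitor libraries, with a mean difference of at least 10 points, in 113 tiles (0.134% of those tested), and above them in 72 (0.0855%). The median difference was -19.1 points in the lower and 21.0 points in the higher tiles. The counts include the pairs used to choose the tiles, and their adjusted p was 0.425 to 0.577 by the quasi-binomial model. Leaving out 1 stage relaxes the rule. Of 84165 tiles it gave 755 without week 3, 593 without week 9 and 291 without day 10. It gave 271 without day 16, 467 without day 19 and 298 without the retired pair. The largest 10 in each direction were taken for description, of which 18 are given here. None lay within 1000 bp of a placed start site, and the gene names below, from RefSeq on GRCm38.p6, mark neighbourhoods and not targets.

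The tile with the largest gap lay at chr11:103098001-103099000 on mm9, between the start sites of Gm34823 (18.1 kb) and Map3k14 (29.7 kb), the kinase of the non-canonical NF-kB pathway. Its stem levels were 65.1%, 59.3%, 23.7%, 26.4%, 13.5% and 10.0% from week 3 to retired, against 69.6%, 80.2%, 81.9%, 100%, 73.3% and 88.9% in progenitor cells. The 2 virgin stem libraries were the highest and the pregnant and retired ones the lowest, so the gap of -49.3 points came mostly from the later stages. The same shape was seen on chromosome 15 near the water channel genes Aqp5 and Aqp2, at chr15:99375001-99376000. There stem levels were 49.6% and 48.6% in virgins and 19.8% to 27.0% in the other 4 stages, and progenitor levels ran from 51.6% at week 3 to 91.9% in retired mice. At chr4:134636001-134637000, between Syf2 and the transcription factor gene Runx3 (71.5 kb), stem libraries averaged 36.0% ± 15.4 and progenitor libraries 72.4% ± 6.29 (SD, n = 6).

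At chr8:11190001-11191000, between Irs2, an adaptor of the insulin receptor, and the divergent basement membrane collagen genes Col4a1 and Col4a2, stem libraries averaged 30.9% ± 14.4 and progenitor libraries 66.6% ± 11.9. At chr11:96864001-96865000, a tile of 7 CpGs between Sp2 and Mrpl10 with the epithelial transcription factor gene Sp6 in the same interval, the means were 28.9% ± 15.0 and 64.6% ± 10.4. The other 4 were on chromosome 15 (75649001 to 75650000), chromosome 11 (119406001 to 119407000, 2.9 kb from the start of Gm11762), chromosome 11 (113911001 to 113912000, 16.3 kb from the adhesion gene Sdk2) and chromosome 16 (38362001 to 38363000). Their differences ran from -47.9 to -35.4 points. In each of these 9 tiles both virgin stem libraries were above the mean of the 6 stem libraries. The same levels chose the tiles, so this is a description alone. Over all tiles of 20 to 80%, virgin stem libraries were also higher, with 59.6% and 60.7% against 54.7% to 58.3% later.

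The described tiles with higher stem methylation were mixed across stages. Both virgin stem libraries were the lowest stem libraries in the tile with the largest gap and in those near Cpt2 and Afdn. This mirrors the lower tiles, and was not seen in the other described higher tiles. Over all 72 higher tiles, stem libraries averaged 55.02% and 58.4% in virgins and 60.5% to 61.8% later. These levels also chose the tiles. The largest gap, at chr11:69174001-69175000 in an interval that also holds Kdm6b and Chd3, was 41.4 points. Stem levels there were 60.2%, 62.4%, 71.1%, 66.7%, 94.6% and 73.1%, and progenitor levels 55.2%, 14.9%, 36.8%, 7.63%, 55.4% and 9.89%. The progenitor libraries were spread more widely than the stem libraries, with the day 16, retired and week 9 ones lowest. The tile at chr9:71555001-71556000, 63.4 kb from Cgnl1, which codes for a cell junction protein, had 66.9% ± 6.81 in stem and 27.6% ± 17.6 in progenitor libraries. At chr2:119125001-119126000, between Vps18 (10.5 kb) and the Notch ligand gene Dll4 (25.5 kb), stem levels were 41.8%, 50.2%, 57.1%, 59.5%, 35.7% and 51.0%. Progenitor levels were 21.6%, 22.3%, 20.2%, 9.52%, 4.65% and 10.0% in the same order, so the highest progenitor library was well under the lowest stem library.

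The tile at chr4:107592001-107593000 lay 3.2 kb from the start of Cpt2, an enzyme of mitochondrial fatty acid oxidation. Its stem levels were 50.8% and 40.6% in virgins and 62.3% to 85.4% later, against 0% to 40.4% in progenitor libraries. At chr5:123410001-123411000, between 2 placed start sites of the histone demethylase gene Kdm2b, stem libraries had 56.3% ± 5.62 and progenitor libraries 24.7% ± 10.2. The remaining 4 lay near Bhlhe41 and Itpr2 on chromosome 6, Siah1a on chromosome 8, the junction gene Afdn on chromosome 17 and Dcaf4 on chromosome 12, with differences of 31.5 to 37.5 points.

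**Figure D3:**
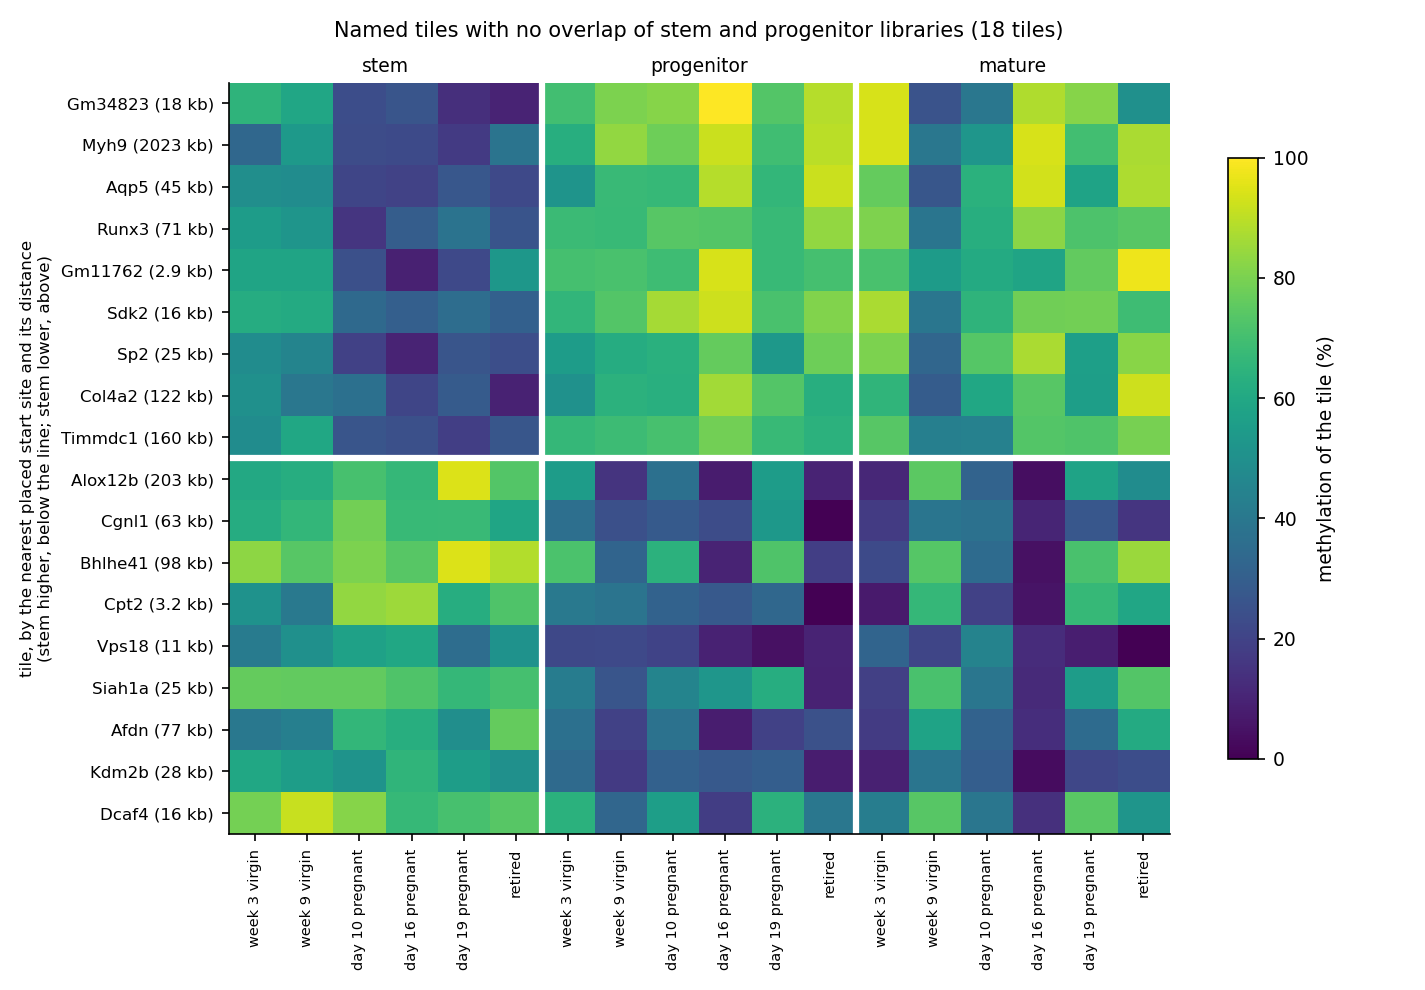
Methylation (%) of the 18 described tiles (rows, named by the nearest placed start site and its distance) in each stem, progenitor and mature library (columns). The upper 9 rows have lower stem methylation, with virgin stem libraries nearer to the progenitor ones than the pregnant stem libraries. The lower 9 rows have higher stem methylation. The stem and progenitor levels shown also chose the tiles.

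The separating tiles held few CpGs, as did most tiles of middle levels. Of the 113 lower tiles 111 held 3 to 9 CpGs, and of the 72 higher tiles 71, against 66114 of all 84165 tiles (78.6%); tiles with 20 or more CpGs contributed 0. The class of 20 to 80% held 92 of the 113 lower and 64 of the 72 higher tiles. In that class 95.6% of all 19767 tiles had 3 to 9 CpGs, and 137 had 20 or more. The number of CpGs therefore hardly set the separating tiles apart from their class. Start sites were placed within 1000 bp of 4 of the lower and 0 of the higher tiles (3.54% and 0%), against 2.42% of all tiles of 20 to 80%. Those 4, named after their values were seen, lay near Cnih2, 4930522O17Rik, Gm16617 and Catsperz. The Cnih2 tile had 33.9% ± 16.3 in stem and 64.8% ± 4.73 in progenitor libraries, and the Catsperz tile, of 12 CpGs, 17.6% ± 5.75 and 32.3% ± 5.05 (SD, n = 6). Cnih2 codes for an auxiliary subunit of AMPA receptors and Catsperz for a part of the sperm calcium channel. Neighbours of the described tiles seldom shared their gap. Of 16 tested tiles within 5000 bp, 12 had the same direction, 1 of them by 10 points or more, and 0 kept the libraries apart. Several of the 12 were near 0% in both cell types, with differences such as -0.002 and 0.038 points, where the direction says little. The neighbour past 10 points adjoined the tile on chromosome 16, with 44.02% in stem and 63.2% in progenitor libraries.

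Mature luminal libraries took no part in choosing these tiles. Their mean was nearer to the progenitor than to the stem mean in 104 of the 113 lower tiles (92.0%) and 64 of the 72 higher tiles (88.9%), against 61.8% of all tiles of 20 to 80%. They averaged 64.6% ± 6.99 in the lower tiles, where stem libraries had 48.1% ± 4.96 and progenitor libraries 68.9% ± 4.60 (SD, n = 6). In the higher tiles they averaged 40.7% ± 8.66, against 59.7% ± 2.60 and 38.01% ± 5.62. The mature libraries did not behave as a set. The week 9 virgin mature library was nearer to progenitor cells in 21.2% of the lower and 29.2% of the higher tiles, and in 39.5% of all tiles of 20 to 80%, while the week 3 and day 16 mature libraries were nearer to them in 92.0% of the lower tiles.

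The tiles that separate the cell types in the 4 stages after virginity (day 10, day 16, day 19 and retired) were then counted, a choice made after the values were seen. All 4 stem libraries lay below all 4 progenitor libraries by at least 10 points in 2478 tiles (2.94%), and above them in 648 (0.770%). The 2 virgin pairs were not used for this choice. In the 2478 lower tiles the mean difference was -24.3 points over the 4 stages, but 3.35 points at week 3 and 1.75 points at week 9. Stem cells were lower at week 3 in 33.9% of these tiles and at week 9 in 42.1%, against 44.1% and 43.0% of all tiles of 20 to 80%. Stem libraries averaged 60.7% and 63.4% there in virgins and 37.3% to 43.1% in the later stages. Progenitor libraries had 57.3% and 61.7% in virgins and 62.8% to 67.7% later. The later values of both cell types chose the tiles, so they cannot show which cell type held the difference between stages. Mature libraries, not used for the choice, averaged 48.6% at week 9 and 55.4% to 67.3% at the other stages.

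The 648 higher tiles carry the same limit. Stem libraries averaged 49.4% and 46.7% in virgins and 62.2% to 64.6% later, and progenitor libraries 48.5% and 43.3% in virgins and 37.7% to 45.5% later. The virgin differences were 0.935 points at week 3 and 3.37 points at week 9, against 21.9 points over the stages used. Mature libraries averaged 55.2% at week 9 and 37.7% to 46.5% at the other stages. Within 1000 bp of a placed start site lay 34 of the 2478 tiles (1.37%) and 9 of the 648 (1.39%), against 2.42% of all tiles of 20 to 80% and 12.1% of all tiles. Without the day 16 and retired pairs, whose progenitor libraries were the shallowest, 447 of 84165 tiles kept the other 4 pairs apart. Of these, 296 were lower and 151 higher.

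**Figure D4:**
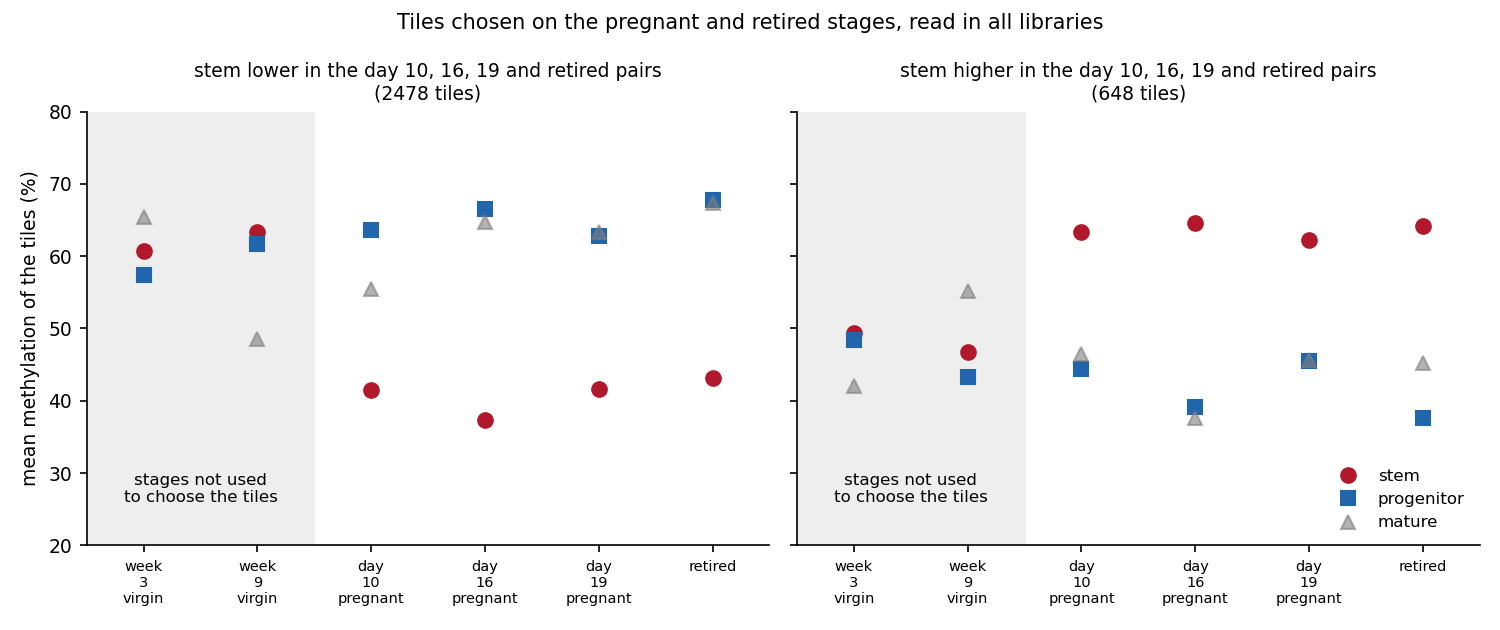
Mean methylation (%) by stage and cell type in the 2478 tiles with lower (left) and the 648 tiles with higher (right) stem methylation in the day 10, day 16, day 19 and retired pairs; each point is 1 library. In the shaded virgin stages, which were not used to choose the tiles, stem and progenitor points differ by at most 3.37 points.

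Methylation was then read at promoters across the genome. A promoter here is 250 bases before to 50 bases after a start site, from RefSeq on GRCm38.p6, and was found in the files by matching the spacing of its CpGs to the listed mm9 positions. Of 32851 promoters 8857 were placed, of 7877 genes, and 7386 of them, of 6619 genes, had at least 3 CpGs read in all 12 libraries. Placing needed at least 5 listed CpGs and so favoured CpG-rich promoters, most of which have low methylation. Nearly all of the 7386 were unmethylated: 7116 (96.3%) had a mean under 20% in both cell types, and 95.9% differed by less than 2 points. By the quasi-binomial model 0 of 7386 promoters (0%) were called, with 506 at an unadjusted p under 0.05 and a smallest adjusted p of 0.663. Limma called 1, 4930522O17Rik (adjusted p = 0.0270). Stem cells were lower by 10 points or more in 15 promoters (0.203%) and higher in 8 (0.108%).

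The promoters of 5 genes are shown, as examples of lower and higher stem methylation with values in every library. All 5 were picked with their values in view, Lep among them, which is also a member of the adipocyte list. Capitals mark the CpGs read in all 12 libraries, and each run starts 250 bases before the start site. The ccgg cut by MspI occurs in all 5, as in 52.8% of the 32851 promoters, on both strands since it is its own reverse complement; no overlap with another motif was counted. The mm9 positions are those of the matched CpGs extended to the ends of the sequence.
4930522O17Rik (chr4:53258818-53259117, plus strand): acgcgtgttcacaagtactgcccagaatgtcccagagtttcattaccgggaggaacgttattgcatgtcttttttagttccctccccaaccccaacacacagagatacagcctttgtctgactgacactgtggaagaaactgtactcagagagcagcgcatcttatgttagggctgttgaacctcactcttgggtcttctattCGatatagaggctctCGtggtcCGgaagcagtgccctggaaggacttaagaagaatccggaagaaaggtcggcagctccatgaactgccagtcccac
Gm16617 (chr14:52608455-52608754, minus strand): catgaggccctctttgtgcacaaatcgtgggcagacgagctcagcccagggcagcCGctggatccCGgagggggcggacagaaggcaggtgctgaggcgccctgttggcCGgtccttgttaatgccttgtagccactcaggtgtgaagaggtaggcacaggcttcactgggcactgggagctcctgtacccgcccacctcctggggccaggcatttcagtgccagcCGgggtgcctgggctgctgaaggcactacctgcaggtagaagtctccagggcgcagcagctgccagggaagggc
Lep (chr6:29009971-29010270, plus strand): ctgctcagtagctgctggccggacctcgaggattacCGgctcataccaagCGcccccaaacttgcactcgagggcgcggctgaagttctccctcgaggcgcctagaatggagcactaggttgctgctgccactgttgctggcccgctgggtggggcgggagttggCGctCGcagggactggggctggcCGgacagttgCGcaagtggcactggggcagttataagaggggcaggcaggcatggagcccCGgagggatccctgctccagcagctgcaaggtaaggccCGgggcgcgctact
Kcne4 (chr1:78813236-78813535, plus strand): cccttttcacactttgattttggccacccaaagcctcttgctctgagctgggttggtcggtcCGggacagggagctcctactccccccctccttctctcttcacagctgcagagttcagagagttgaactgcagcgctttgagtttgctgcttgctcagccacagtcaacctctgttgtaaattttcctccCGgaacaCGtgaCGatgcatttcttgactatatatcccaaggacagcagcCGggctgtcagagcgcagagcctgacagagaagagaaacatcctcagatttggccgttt
Plagl1 (chr10:12810388-12810687, plus strand): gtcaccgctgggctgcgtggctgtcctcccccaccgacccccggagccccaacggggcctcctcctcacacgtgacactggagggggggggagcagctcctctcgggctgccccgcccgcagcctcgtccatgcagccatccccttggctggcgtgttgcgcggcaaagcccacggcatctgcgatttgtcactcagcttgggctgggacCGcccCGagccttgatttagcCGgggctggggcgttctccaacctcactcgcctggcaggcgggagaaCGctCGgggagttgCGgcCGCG

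The 4930522O17Rik promoter, of a long noncoding RNA gene, was methylated in progenitor cells throughout. Its stem levels were 87.1%, 88.1%, 61.7%, 41.6%, 52.2% and 60.0% from week 3 to retired, and its progenitor levels 89.6%, 94.4%, 96.6%, 95.0%, 94.8% and 100%. The groups did not overlap, although the week 3 pair differed by -2.53 points and the week 9 pair by -6.38 points. The 3 marked CpGs lie at positions -47, -32 and -25 from the start, with differences of -33.9, -40.5 and -21.1 points. The fewest reads over the promoter were 20, in 1 library.

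At the Gm16617 promoter stem levels were 53.6%, 36.5%, 29.5%, 26.4%, 37.7% and 30.3%, and progenitor levels 58.2%, 61.6%, 55.2%, 72.9%, 65.2% and 59.7%. Here too the groups did not overlap, and the week 9 pair already differed by -25.2 points, against -4.61 points at week 3. Methylation in progenitor cells declined along the 4 marked CpGs, from 88.3% ± 7.22 at position -195 to 28.2% ± 10.4 at position -24. Stem cells were lower at each of the 4, with 53.1% ± 17.9 at the first and 18.1% ± 18.8 at the last, and the difference went from -35.2 to -10.02 points.

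Lep codes for leptin, a hormone made mainly by fat cells. Its promoter had 52.6%, 55.6%, 31.7%, 13.9%, 18.6% and 30.8% methylation in stem libraries, and 39.0%, 52.2%, 54.2%, 49.5%, 60.1% and 70.4% in progenitor libraries. Stem cells were above progenitor cells in the virgin pairs, by 13.6 and 3.38 points, and below them in the other 4, by -34.8 points on average. All 8 marked CpGs had a lower stem mean, from -9.49 points at position -62 to -32.5 points at position -85. The mean difference was -20.4 points (adjusted p = 0.689 by the quasi-binomial model). Mature libraries ran from 23.9% at week 9 to 69.6% in retired mice. The other adipocyte gene tested, Pparg, a regulator of fat cell differentiation, differed by 0.135 and -0.603 points at its 2 promoters.

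Kcne4, which codes for a subunit of potassium channels, had the opposite direction. Its stem levels were 53.8% and 53.4% in virgins and 74.5% to 87.4% in the other 4 stages, while progenitor libraries had 43.6% to 67.2% throughout. The virgin pairs differed by -1.09 and -1.86 points and the later ones by 27.1 points on average, with no overlap among the later libraries. Each of its 5 marked CpGs had the higher mean in stem cells.

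**Figure D5:**
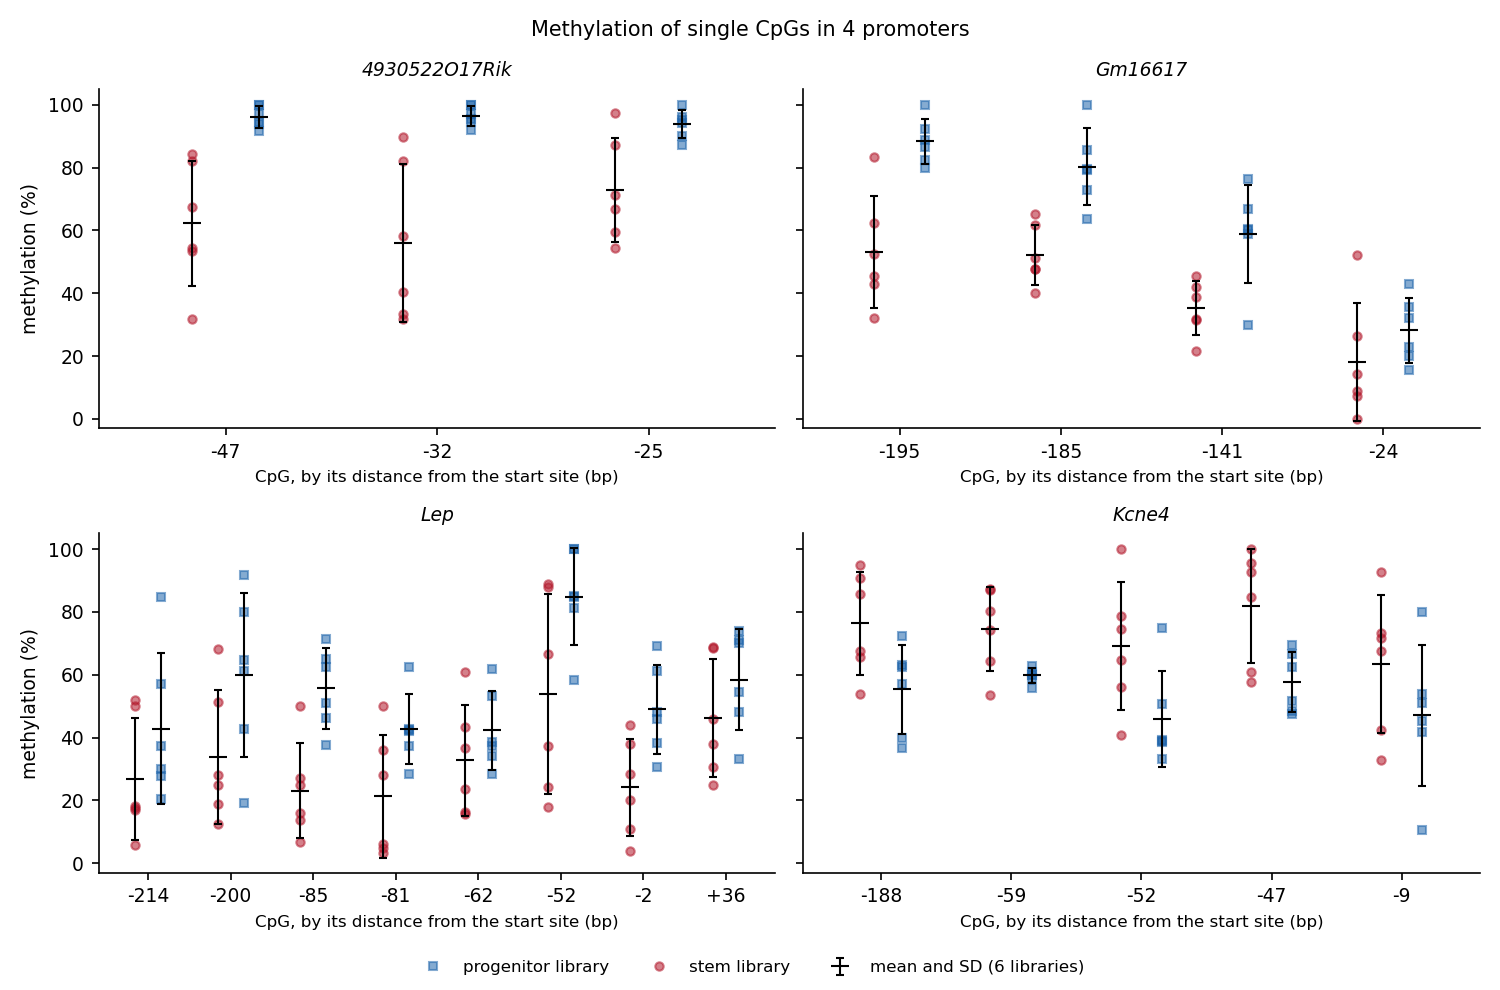
Methylation (%) of the CpGs read in all 12 libraries in 4 promoters, by distance from the start site (bp); small points are libraries, black bars the mean and SD of 6. Stem means lie below progenitor means at every CpG of 4930522O17Rik, Gm16617 and Lep, and above them at every CpG of Kcne4.

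Plagl1, an imprinted zinc finger gene expressed from the paternal allele, shares its promoter CpGs with the imprinted transcript Hymai. Stem levels at Plagl1 were 24.7%, 33.3%, 37.9%, 51.2%, 19.2% and 40%, and progenitor levels 16.7%, 19.6%, 17.2%, 25.3%, 19.5% and 1.82%. Stem cells were higher in 5 of 6 pairs, with day 19 the exception, and the retired progenitor library was the lowest. With reads summed, the mean difference was 17.7 points, and 12.7 points at Hymai. Single CpGs of Plagl1 differed by 12.7 to 18.9 points at positions -40, -35 and -19, and by 6.11 to 8.02 points at positions 28 to 48. At position 28, stem levels were 40% at day 16, 22.2% in retired mice and 0% in the other stem libraries. The fewest reads there were 5 in a library. Mcts2, another imprinted gene, differed by -11.6 points, with 38.3% ± 8.95 in stem and 49.9% ± 9.58 in progenitor libraries (SD, n = 6).

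Of the 22 genes whose promoters differed by 10 points or more, 5 were on the X chromosome, which is inactivated on 1 copy in female cells and carries promoters at middle levels. These were Stk26, Kif4 and Flicr, lower in stem cells, and Upf3b and Tbc1d25, higher in stem cells. The X held 153 of the promoters tested (2.07%), with a median level of 28.0% against 0.164% elsewhere. Of the 215 promoters with a mean of 20 to 80%, 122 were on the X. The largest promoter difference was that of Gm13205, -37.4 points, with stem levels of 63.3% and 67.4% in virgins and 8.05% to 26.9% later. In its week 3 pair stem cells were higher, by 8.90 points. Mamstr, a coactivator of muscle genes, differed by -19.2 points, and its week 9 pair was the exception, with 61.1% in stem and 60.3% in progenitor cells. Fes, a tyrosine kinase, had 3.25% to 26.8% in stem and 0% to 15.9% in progenitor libraries.

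All 6 stem libraries were below all 6 progenitor libraries, at any size of difference, in 6 promoters (0.0812%), and above them in 0 (0%). Besides 4930522O17Rik and Gm16617 these were Pclo, Gm30439 and the overlapping Tial1 and Gm32816, all at or under 2.03% in every stem and progenitor library. In the 4 later stages, 11 promoters (0.149%) were lower in stem cells by at least 10 points with no overlap, and 2 (0.0271%) were higher. Besides those above, the lower ones included Trp73, a relative of the basal cell regulator p63, at -16.8 points, and Krtdap, a keratinocyte differentiation gene, at -25.1 points. At week 3 stem cells were lower in 4 of the 11 and at week 9 in 5.

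The tested promoters of the lineage and pathway lists were nearly all unmethylated in both cell types. Since placing favoured CpG-rich promoters, these levels do not describe the listed genes that were not placed. Of the basal and stem list 14 of 48 genes were tested, of the luminal progenitor and alveolar list 8 of 39, of the hormone-sensing list 4 of 17 and of the luminal keratin and junction list 6 of 31. None was called in either direction (0%), and 0 of them differed by 10 points. Their median differences were 0.108, -0.011, -0.042 and -0.053 points, beside -0.003 points over all promoters. The widest was Prom1, the stem and luminal surface protein prominin, with 10.5% ± 3.92 in stem and 6.33% ± 2.39 in progenitor libraries. Of the other lists, 12 of 24 Notch, 25 of 58 Wnt, 19 of 47 TGF-beta and 10 of 17 DNA methylation genes were tested, again with 0 called and 0 past 10 points. Tests reached 3 leukocyte, 1 endothelial, 3 stromal and 2 adipocyte genes. Coro1a of the leukocyte list had 1.43% and 3.17% in stem and 6.37% and 7.68% in progenitor libraries at its 2 promoters. The other leukocyte genes tested, Ikzf1 and Lcp1, differed by 0.054 and -0.244 points at levels near 0%.

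Some tiles within 5000 bp of a listed start site differed by 10 points or more, though none was called and 0 kept the 12 libraries apart. Among the 12163 such tiles of all placed promoters 2.18% differed by 10 points or more. The Wnt list had 7 of 87 (8.05%), the Notch list 2 of 45 (4.44%), the TGF-beta list 3 of 73 (4.11%), the basal list 3 of 55 (5.45%) and the luminal keratin and junction list 2 of 18 (11.1%). The luminal progenitor and hormone-sensing lists had 0 of 35 and 0 of 13. The DNA methylation, leukocyte and endothelial lists had 0 of 20, 0 of 6 and 0 of 2, the stromal list 1 of 7 and the adipocyte list 1 of 3. The basal tiles, near Twist2, Lgr4 and Jag2, are counted again in the stromal, Wnt and Notch lists. Median tile differences were -0.077 points in the basal, -0.121 in the Notch and -0.062 in the Wnt list, beside -0.023 for all placed promoters. These shares rest on few tiles.

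Among Notch genes, the tile 3.2 kb from the start of Jag2, a ligand, at chr12:114164001-114165000, had stem levels of 86.6% and 89.0% in virgins and 26.9% to 49.5% later. Progenitor libraries there had 71.9% to 96.8%. The tile 2.0 kb from Dll4 had 29.9% ± 9.07 in stem and 41.2% ± 8.20 in progenitor libraries. Both were lower on average in stem cells, and both virgin pairs at Jag2 went the other way.

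In the Wnt pathway, the tile 4.3 kb from Lgr4, a receptor for R-spondins, at chr2:109753001-109754000, had 86.0% and 81.6% in virgin stem libraries, 23.9% to 53.6% in the later ones and 55.3% to 97.4% in progenitor libraries. Tiles near the Frizzled receptor genes Fzd5, Fzd1 and Fzd9 were lower in stem cells, by -10.5, -11.8 and -14.8 points, and the tile near Fzd10 was higher by 21.97 points. Near Wnt10b, a ligand, stem cells were higher in 6 of 6 pairs, with 54.3% ± 6.76 against 44.04% ± 5.30 (SD, n = 6). Near the transcription factor gene Lef1 they were higher by 10.6 points, in 5 of 6 pairs.

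In the TGF-beta family, 2 adjoining tiles 4.3 and 3.3 kb from Inhbb, a subunit of activins and inhibins, were higher in stem cells. The nearer one, at chr1:121315001-121316000, had 26.8% ± 7.30 in stem and 10.9% ± 5.57 in progenitor libraries and was higher in 6 of 6 pairs. The tile near Smad9 differed by -15.4 points. Among luminal genes, the tile 853 bp from the start of the luminal keratin gene Krt18, at chr15:101859001-101860000, had stem levels of 26.1%, 9.24%, 41.0%, 37.5%, 32.9% and 30.9%. Progenitor levels were 18.1%, 13.5%, 13.8%, 12.9%, 33.7% and 15.0%, lower in 4 of 6 pairs. The tile 3.3 kb from Lad1, which codes for an anchoring protein of the basement membrane, had 40.8% ± 12.8 in stem and 23.3% ± 7.18 in progenitor libraries, with week 9 as the exception. By the quasi-binomial model the adjusted p of the tiles named near listed genes was 0.425 to 0.789.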

How the data were processed

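Mammary cells of 3 types at 6 reproductive stages were measured by multiplexed reduced representation bisulfite sequencing, 1 library each. Each of the 18 deposited files lists CpGs with methylated and total reads, on mm9 per the submitters' processing notes. Aligner and caller: not given in the sources used here. The authors' score, a column of the 7 deposited files with 6 columns, equalled 1000 times the methylated share to within 0.5 and was used for that check alone. Those 7 were all files of day 19 and of retired mice, and the day 16 progenitor file. The other 11 files have 4 columns, among them the day 16 stem file and all virgin and day 10 files. The layout thus partly follows stage, and at day 16 it differs between the 2 cell types. Its part in the results was not tested.

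CpGs with at least 5 reads in all 12 stem and progenitor libraries were kept. Reads were summed over CpGs in tiles of 1000 bp and in promoters with at least 3 CpGs. Stem and progenitor cells were compared by quasi-binomial logistic regression with stage as a block, since the labels give each stage 1 library of each type. Dispersion was moderated and held at 1 or more, and p-values came from F tests, adjusted after Benjamini and Hochberg. Thinning kept each read with a fixed probability, the total of the shallowest library over that of the library. A call needed an adjusted p under 0.05 and 10 points. The deviations of same-stage libraries correlated at -0.168 to 0.206, above 0.1 in 1 of 6 stages. Means were compared by exact permutation within stages (64 arrangements). limma 3.58.1 on log2((methylated + 1)/(unmethylated + 1)) in R 4.3.3 was an alternative. Python 3.11.15, numpy 2.4.6, scipy 1.17.1 and pandas 2.3.3 were used. The test was tested on simulated data: of 84165 tiles 200 were changed, and 0 others were called.

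Promoters with at least 5 CpGs (20355) were placed by matching CpG spacing, with no coordinate converted. A unique match was found for 9207, and for 1926 when searched on the next chromosome as a control. With 7 or more CpGs these were 7932 and 77, and 99.6% lay at the distance of their neighbours. Matches had to lie within 2000 bp of the place set by 11 neighbours.

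Named tiles were the 10 with the largest difference in each direction among those whose libraries did not overlap, and 2 of them are not reported here. Members, lists and tests were chosen with earlier results of these data known.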

Additional observations from a re-analysis of the deposited data

Results flagged for a closer look

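Values in groups of 6 libraries were screened for a library far from the others by Dixon's 95% limit, and 3 of 54 groups passed it, where chance gives about 5%. In the tile at chr11:119406001-119407000 near Gm11762, the day 16 progenitor library was highest at 94.1%, with the others at 67.2% to 71.2%. In the tile at chr4:107592001-107593000 near Cpt2, the retired progenitor library was lowest at 0%, with the others at 28.0% to 40.4%. At the Pclo promoter the week 3 stem library was highest at 0.223%, with the others at 0%.

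The stem minus progenitor difference had opposite signs in virgin and pregnant stages. Pregnant minus virgin was -1.27 points over all CpGs and -5.82 points over CpGs of 20 to 80%, with every pregnant pair below every virgin pair. The exact permutation p was 0.1 for both, the smallest that 3 against 2 pairs allows.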

How the results depend on the processing

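Over 38 results, 542 of 561 alternative values left the direction and the call as they were (for a count, a change of less than 1.5 times). Of the 561, 417 belonged to single tiles or promoters named for their differences, and 416 of these were unchanged. Several settings, such as limma or the fit without the block, cannot alter the mean difference of a single tile. The agreement was therefore in large part fixed in advance. With 10 reads per CpG, 49422 tiles were tested instead of 84165, and those past 20 points from week 3 to retired numbered 444, 1406, 1669, 2772, 1685 and 2631. The libraries then kept apart in 98 tiles. Thinning reads gave 2376 tiles at week 3. Without 1 stage the tiles with no overlap numbered 271 to 755 of 84165, since fewer libraries make the rule easier. In alternatives chosen after seeing the data they numbered 3126 of 84165 with pregnant and retired stages only, and 447 of 84165 without the day 16 and retired stages.

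Without the replicate block, the pairing by stage, 1 tile was called (adjusted p = 0.0162), with 0 promoters and 0 single CpGs. The mean differences of -0.486 and -1.89 points then had exact permutation p = 0.141 and 0.134. On limma's log2 ratios 1 promoter was called, that of 4930522O17Rik, at -29.99 points. Pooling reads over CpGs turned the mean difference to 0.617 points (exact permutation p = 0.219), and the cause was not tested. Leaving out 1 stage gave means of -0.690 to -0.332 points, and -2.68 to -1.29 points at CpGs of 20 to 80%, where 5 pairs cannot give a p under 0.0625. A described tile had as few as 18 reads in a library. In counts simulated with these libraries and the same spread in every tile, 21% of tiles set to differ by 20 points were called. The parts of depth, spread and number of pairs in this were not tested.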
